A study of Rattus norvegicus with 29 samples.

Results

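The genes described here encode the enzymes and structural proteins that write, erase and read marks on chromatin. Covered are histone deacetylases, sirtuins, acetyltransferases, DNA methyltransferases, TET dioxygenases, methyl-CpG-binding domain proteins, and histone methyltransferases and demethylases. The other genes encode nucleosome remodellers, the architectural protein Ctcf and Sin3a, the scaffold of a corepressor complex. All these genes were listed by function, 46 in all. A gene was measured by the probe set that carried exactly its symbol in the platform annotation. Where there were several, the brightest one by its mean over all arrays was used. Of the 46 genes, 42 had such a probe set, out of 14218 genes named by the platform annotation. Sirt1, Hdac9, Kdm4a and Suv39h1 had none and are not analysed here. The 42 genes were covered by 70 probe sets.

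The samples were nucleus accumbens shell from P rats, the alcohol-preferring line bred selectively for voluntary ethanol intake. The groups were rats exposed to continuous ethanol (n = 10), rats with limited access to ethanol (n = 10) and rats given only water (n = 9). The series' design names 10 samples a group, and 1 water sample was not analysed here. The P line is common to every group, and no strain without this selection was compared. The sources used here give no ages, lengths of exposure or ethanol intakes. The labels do not state that samples came from different animals, and p-values refer to the spread among these samples, part of which may be technical.

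DNA in the nucleus is wound around histones, and acetylation of histone tails generally accompanies active genes. Deacetylases and sirtuins remove acetyl groups, and acetyltransferases add them. DNA methyltransferases place methyl groups on cytosines of CpG dinucleotides, TET enzymes oxidise them as a step towards removal, and methyl-CpG-binding proteins read them. In the accumbens and other parts of the reward circuit, several of these enzymes, Hdac5, Ehmt2 and Dnmt3a among them, have been studied for their part in responses to drugs of abuse, and Hdac2, Dnmt1, Prdm2 and Kdm6b have been studied with ethanol. The values here are transcript levels and carry no information on enzyme activity, histone marks or DNA methylation.

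Array medians ran from 8.17 to 8.21 (log2), pairwise correlations over the tested probe sets lay between 0.971 and 0.997, and 0 pairs of arrays were identical. All 14 medium spiny neuron markers with a probe set passed the filter on dim probe sets, among them Drd1 with a mean of 12.14, Drd2 with 9.96 and Penk with 13.54. Principal component 2 (16.5% of the variance) set 5 arrays apart from the others. They were 3 water arrays (replicates 2, 5 and 6) and 2 limited arrays (replicates 6 and 7). Their scores ran from -22.2 to -15.6, and the next array scored -3.30. At the other end, where no cut was sought, continuous replicate 4 scored 20.2 and the next array 10.9. Values without these 5 arrays are given below for the genes named in that connection, and sign changes among the other genes are counted. The leptomeningeal list, which marks the membrane over the brain, had a mean log2 level between 10.10 and 11.36 in water arrays, 9.99 and 11.03 in limited arrays and 8.74 and 11.03 in continuous arrays. With continuous ethanol against water its 10 markers had a median difference of -0.32, with 0 called. The 9 endothelial and mural markers had a median of -0.17, with 1 called, and their mean log2 level lay between 9.44 and 9.85 in water, 9.37 and 9.60 in limited and 9.25 and 9.54 in continuous arrays. The interneuron, pan-neuronal, cortical or claustral, astrocyte, oligodendrocyte and microglia lists had medians from -0.02 to 0.08 in that comparison, and the medium spiny neuron list had a median of -0.05, with 0 called in each. The part of these cell types in the differences below was not tested. In such bulk tissue, fewer cells of a type and less RNA per cell cannot be told apart.

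A feature common to most of these genes that their selection did not use is a promoter rich in CpG dinucleotides, the substrate of the DNA methyltransferases among them. RefSeq promoter windows of assembly GRCr8, from 250 bases before to 50 after the annotated start, were matched for 38 of the 42 genes. Their median was 24.5 CpG in a window of 300 bases, with a range from 3 to 41, against a median of 12 over 18999 protein-coding genes, of which 23.2% reached 24.5 or more. Median GC content was 63.7% against 55.3%. The cAMP response element TGACGTCA, searched on both strands, was in 0 of the 38 windows and in 2.22% of all windows. The AP-1 sequence TGANTCA, which is its own reverse complement, was in 1 window (2.63%) and in 6.65% of all windows. These letters describe the windows only. The upstream 250 bases of 2 windows are shown as a rich and a poor one, with every CpG in capitals. Hdac2, the gene of smallest p with continuous ethanol, has 33 CpG in its window of 300 bases, 23 of them in the part printed (GRCr8 chr20:42102877-42103126, plus strand). Tet1 is among the poorest, with 3 in its window and 1 in the part printed (GRCr8 chr20:25766556-25766805, plus strand).
Hdac2: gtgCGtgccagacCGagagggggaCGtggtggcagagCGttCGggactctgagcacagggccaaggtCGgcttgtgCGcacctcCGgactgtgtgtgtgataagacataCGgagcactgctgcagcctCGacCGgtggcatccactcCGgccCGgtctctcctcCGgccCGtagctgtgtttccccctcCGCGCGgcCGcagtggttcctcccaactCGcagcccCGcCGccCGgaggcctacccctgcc
Tet1: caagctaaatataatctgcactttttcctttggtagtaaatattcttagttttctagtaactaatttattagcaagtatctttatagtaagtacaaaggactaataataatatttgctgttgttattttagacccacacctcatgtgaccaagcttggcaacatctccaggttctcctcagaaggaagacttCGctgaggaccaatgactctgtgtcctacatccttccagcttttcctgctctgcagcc

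Continuous ethanol was set against water to ask which transcripts differ after continuous exposure. None of the chromatin genes was called. Of the 42 genes, 40 passed the filter on dim probe sets, a mean log2 value above 6.86, and the other two were Dnmt3a and Dnmt3b. Limma called 0 of the 40 at an adjusted p under 0.05, against 0.152% of all 21729 probe sets tested, and the smallest adjusted p among the 40 was 0.171. At an unadjusted p under 0.05 there were 5 of 40 (12.5%), against 16.1% of all probe sets tested. All 5 were higher with continuous ethanol, against 9.62% of all probe sets that were higher at that p. These 5 were Hdac2, Suz12, Kdm5c, Sin3a and Tet1. Differences were above 0 for 23 genes and below 0 for 17, that is 57.5% above 0 against 52.5% of all probe sets tested, with a median of 0.01 against 0.00. In the other direction there were 0 of 40, against 6.48% of all probe sets. The share of these genes at an unadjusted p under 0.05 was thus near the background, and below it. It was above the background with 8 of 40 genes (20.0% against 15.5%) after a further quantile normalization, of which 5 were higher and 3 lower. The same held with array weights (17.5% against 12.7%) and with only the groups compared (20.0% against 16.6%). It also held with the SD of each array's log2 values as a covariate (10.0% against 5.87%). Without the 5 arrays named above the count was 7 of 40 (17.5% against 9.92%). Of those 7, 3 were higher (Hdac2, Suz12 and Kdm5c) and 4 lower (Hdac10, Prdm2, Ezh2 and Smarca2), so the single direction seen with all arrays was not seen without them. In that setting 10 of the 40 differences turned their sign, and the smallest adjusted p was 0.357.

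Limited access was set against water to ask the same question for the restricted schedule. Limma called 0 of the 40 genes, and 0% of all probe sets tested were called. At an unadjusted p under 0.05 there was 1 gene (2.50%), Smarca2, against 4.44% of all probe sets. It was lower, as were 2.34% of all probe sets at that p, with another 2.10% higher, and the smallest adjusted p was 0.972. The median difference was -0.01 against 0.00 over all probe sets, with 17 genes above 0 and 23 below 0, or 42.5% above 0 against 50.5% of all. Between the schedules, limited against continuous, limma called 0 of the 40, against 0.0046% of all probe sets, and 2 genes (5.0%) had an unadjusted p under 0.05, Hdac2 and Sin3a, against 9.31% of all. Both were lower with limited access, as were 5.74% of all probe sets, with another 3.56% higher. The median of that comparison was -0.02 against -0.01 over all probe sets, with 11 genes above 0 and 29 below 0, or 27.5% above 0 against 46.6% of all. In the test over all groups at once, 0 of the 40 genes passed, against 0.0828% of all probe sets, and the smallest adjusted p was 0.331. Both comparisons with water share the water arrays, and both comparisons with continuous ethanol share the continuous arrays.

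**Figure D1:**
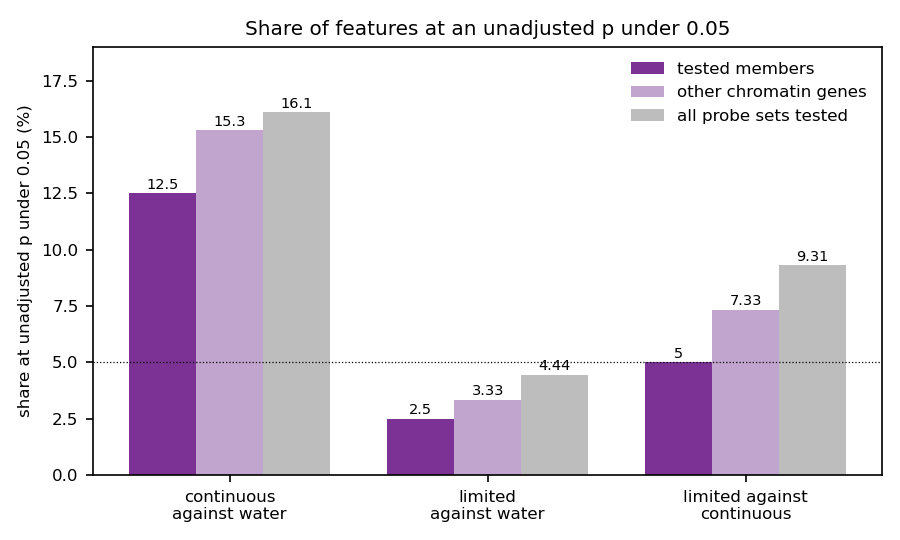
Share of features at an unadjusted p under 0.05 (percent, vertical axis) in each comparison, for the 40 tested chromatin genes, the 150 other chromatin genes and all 21729 probe sets tested; the dotted line marks 5%. In all 3 comparisons, in the main setting shown, the chromatin genes lie at or below the share of all probe sets, with 12.5% against 16.1% for continuous ethanol.

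The intervals around these differences were narrow. The 95% interval of a difference between continuous ethanol and water had a median half-width of 0.09 over the 40 genes, with a range from 0.06 to 0.18, against a median of 0.11 over all probe sets tested. The residual SD between arrays of a group had a median of 0.09 for these genes and 0.12 for all probe sets, and 29 of the 40 lay below the latter. For 33 genes the whole interval lay within 0.2 of 0 on the log2 scale, which is 1.15-fold. The 7 whose interval reached further were Hdac2, Hdac10, Tet1, Tet3, Prdm2, Suz12 and Kdm5c. Without the 5 arrays set apart, 9 of the 40 differences turned their sign with limited access and 6 between the schedules. With all arrays and limited access the interval lay within those bounds for 36 genes, the exceptions being Hdac1, Hdac8, Prdm2 and Suz12. Between the schedules it did so for 32 genes.

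**Figure D2:**
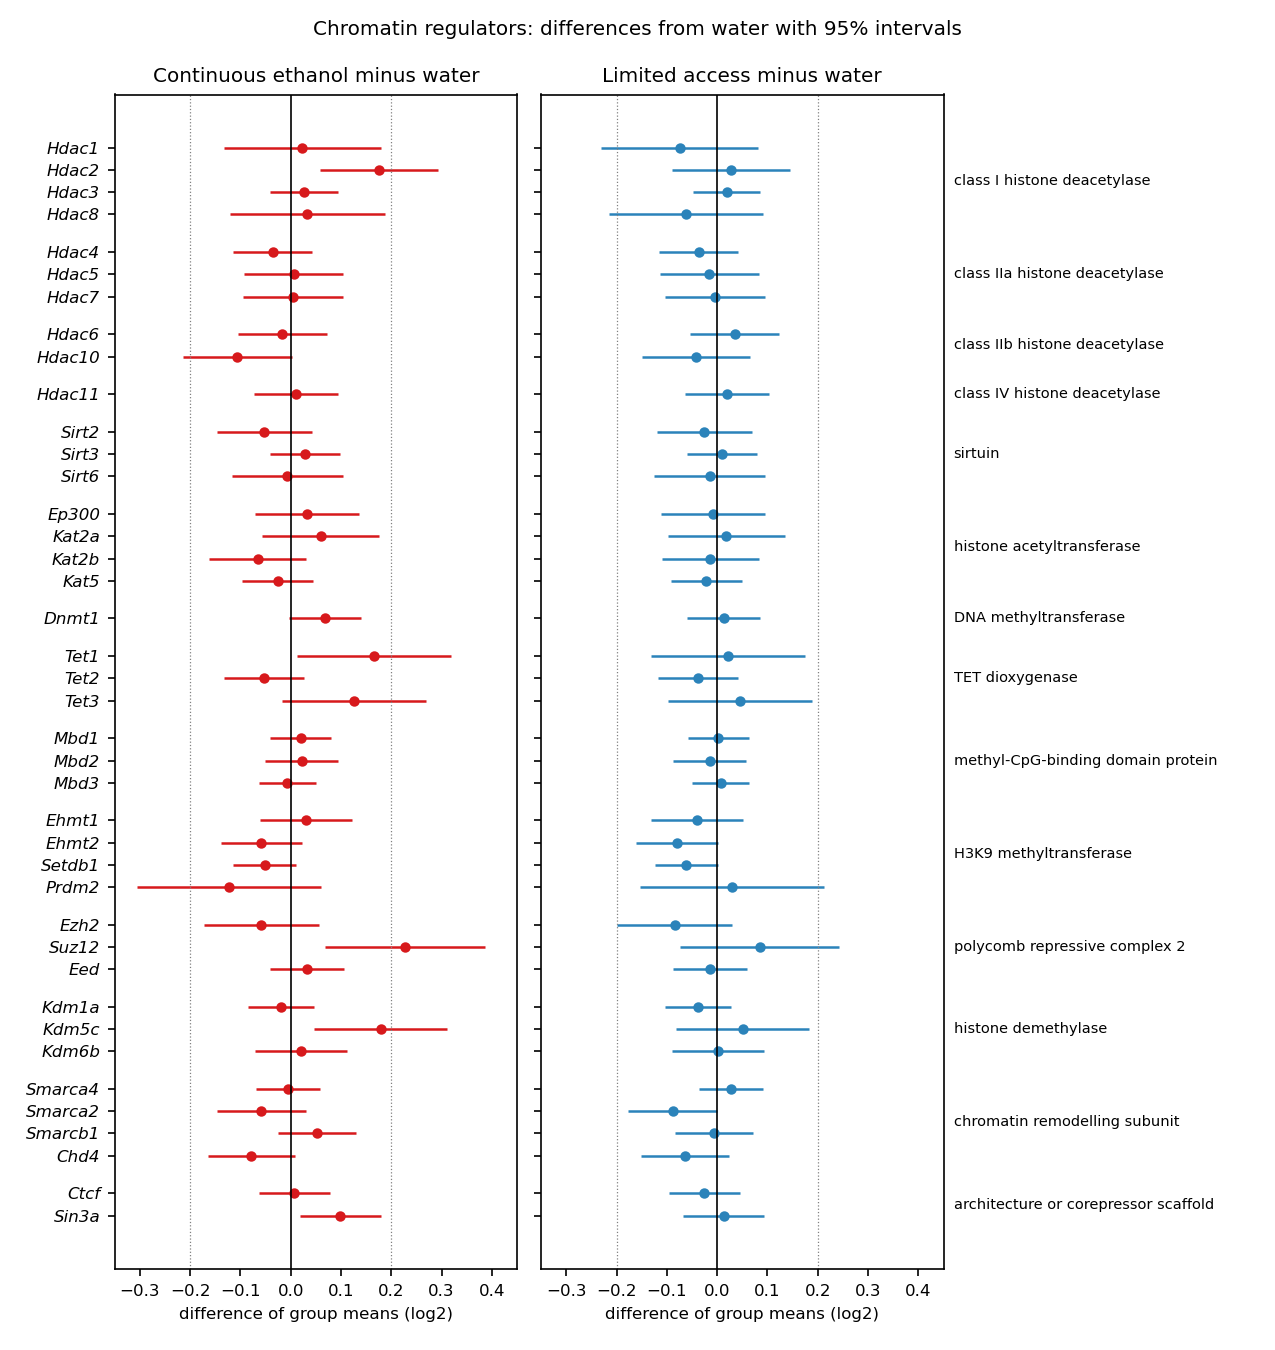
Differences of group means (log2, horizontal axis) for the 40 tested chromatin genes, continuous ethanol minus water on the left and limited access minus water on the right; points are estimates, lines are 95% intervals from limma, and dotted lines mark 0.2 on each side of 0. Suz12, Kdm5c, Hdac2, Tet1 and Sin3a have intervals above 0 on the left, and 0 genes have an interval above 0 on the right.

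Among the class I deacetylases, nuclear enzymes that work in corepressor complexes, Hdac2 had the smallest p of all members in the comparison of continuous ethanol with water. Its values (probe set 1370908_at) ranged from 10.49 to 11.04 with a median of 10.87 in water, from 10.57 to 10.98 with a median of 10.88 in limited arrays and from 10.94 to 11.10 with a median of 11.00 in continuous arrays. The continuous arrays lay close together in the upper part of the range, and their values overlapped those of both other groups. The mean was 10.83 ± 0.17 (SD, n = 9) in water, 10.86 ± 0.14 (SD, n = 10) with limited access and 11.00 ± 0.04 (SD, n = 10) with continuous ethanol. Continuous minus water was 0.17 ± 0.06 (SE, 95% interval 0.06 to 0.29, unadjusted p = 0.00488, limma adjusted p = 0.171), and 10 of 10 continuous arrays exceeded the mean of water. Limited minus continuous was -0.15 ± 0.06 (95% interval -0.26 to -0.03, unadjusted p = 0.0131, limma adjusted p = 0.526), and limited minus water was 0.03 ± 0.06 (limma adjusted p = 0.981).

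The low Hdac2 values belonged largely to the arrays that lay apart on the second component. The 5 such arrays had values from 10.49 to 10.85. In water, the 3 of them had a mean of 10.67 and the other 6 water arrays a mean of 10.91, with a range from 10.71 to 11.04. Without these 5 arrays, continuous minus water was 0.10 (limma adjusted p = 0.432) and limited minus continuous was -0.09. With all arrays and the SD of each array's log2 values as a covariate, continuous minus water was 0.09 (limma adjusted p = 0.904). The remaining class I genes had smaller differences. The difference of continuous ethanol from water was 0.02 ± 0.08 (SE) for Hdac1, 0.03 ± 0.03 for Hdac3, the deacetylase of the NCoR complex, and 0.03 ± 0.08 for Hdac8. Limited minus water was -0.07 for Hdac1, 0.02 for Hdac3 and -0.06 for Hdac8. A second, dimmer probe set of Hdac1 differed by 0.06 ± 0.05 with continuous ethanol.

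The class IIa deacetylases shuttle between nucleus and cytoplasm under control of calcium-dependent kinases, and act with MEF2 transcription factors. Hdac5 (probe set 1371819_at) ranged from 10.25 to 10.62 with a median of 10.32 in water, from 10.20 to 10.52 with a median of 10.35 in limited arrays and from 10.18 to 10.51 with a median of 10.40 in continuous arrays. The groups overlapped nearly throughout. Continuous minus water was 0.01 ± 0.05 (SE, 95% interval -0.09 to 0.10, unadjusted p = 0.909, limma adjusted p = 0.969), and limited minus water was -0.02 ± 0.05 (95% interval -0.11 to 0.08, limma adjusted p = 0.988), with means of 10.37 ± 0.13 (SD, n = 9) in water, 10.36 ± 0.08 (SD, n = 10) with limited and 10.38 ± 0.11 (SD, n = 10) with continuous access. Hdac4 differed by -0.04 in both comparisons with water, and Hdac7 by 0.00 with continuous ethanol and -0.00 with limited access. For these 3 genes both intervals against water lay within 0.2 of 0. A dimmer tested probe set of Hdac5 differed by -0.05 ± 0.06 with continuous ethanol, the opposite sign to the brightest. With limited access it differed by -0.03 ± 0.06.

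Hdac6, mainly a cytoplasmic tubulin deacetylase, differed by -0.02 ± 0.04 (SE) with continuous ethanol and by 0.03 ± 0.04 with limited access. Hdac10, which deacetylates polyamines, differed by -0.11 ± 0.05 (SE, unadjusted p = 0.0536, limma adjusted p = 0.319) with continuous ethanol, and its dimmer tested probe sets by -0.06 and -0.09, so that all 3 had the same sign. With limited access the 3 differed by -0.04, -0.06 and -0.12, the last with an unadjusted p of 0.0301 (limma adjusted p = 0.972). Hdac11, the class IV enzyme, differed by 0.01 and 0.02. The sirtuins are deacetylases that consume NAD, and they act in different compartments of the cell. Sirt2, abundant in oligodendrocytes, differed by -0.05 ± 0.05 with continuous ethanol and -0.03 with limited access, while the 6 tested oligodendrocyte markers had a median of -0.01 in both comparisons with water. The mitochondrial Sirt3 differed by 0.03 and 0.01 and the nuclear Sirt6 by -0.01 and -0.02 in that order.

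Acetyltransferases add the marks that deacetylases remove. Ep300, a coactivator that binds phosphorylated CREB among many factors, differed by 0.03 ± 0.05 (SE) with continuous ethanol and -0.01 with limited access. Kat2a and Kat2b, the catalytic subunits of SAGA-type complexes, differed by 0.06 ± 0.06 and -0.07 ± 0.05 with continuous ethanol. The difference for Kat5, the catalytic subunit of the TIP60 complex, was -0.03 ± 0.03. All 4 had intervals within 0.2 of 0 in all 3 comparisons.

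Dnmt1, which copies methylation onto newly made DNA strands and is also expressed in neurons that no longer divide, was the only DNA methyltransferase above the filter. On probe set 1373772_at, values ranged from 9.29 to 9.50 with a median of 9.41 in water, from 9.26 to 9.62 with a median of 9.44 in limited arrays and from 9.41 to 9.54 with a median of 9.49 in continuous arrays. The continuous values overlapped the upper part of the water values. Means were 9.41 ± 0.06 (SD, n = 9), 9.42 ± 0.10 (SD, n = 10) and 9.48 ± 0.05 (SD, n = 10) in that order. The difference of continuous ethanol from water was 0.07 ± 0.04 (SE, 95% interval -0.00 to 0.14, unadjusted p = 0.0635, limma adjusted p = 0.337), and 9 of 10 continuous arrays exceeded the mean of water, and limited minus water was 0.01 ± 0.04 (95% interval -0.06 to 0.09, limma adjusted p = 0.985). Dnmt3a, a methyltransferase that sets new methylation, had means of 6.69 ± 0.22 (SD, n = 9) in water, 6.70 ± 0.11 (SD, n = 10) with limited and 6.72 ± 0.18 (SD, n = 10) with continuous access on the brighter of its probe sets. Dnmt3b had 6.84 ± 0.16, 6.83 ± 0.16 and 6.79 ± 0.09. Both lay below the filter of 6.86, so they were not tested, and at such signals a difference may be hidden by background.

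The TET enzymes oxidise 5-methylcytosine. Tet1 (probe set 1386026_at) ranged from 7.61 to 8.15 in water (median 8.03), from 7.50 to 8.15 in limited arrays (median 7.99) and from 7.81 to 8.26 in continuous arrays (median 8.08). The groups overlapped. Continuous minus water was 0.17 ± 0.08 (SE, 95% interval 0.01 to 0.32, unadjusted p = 0.0346, limma adjusted p = 0.274), and limited minus water was 0.02 ± 0.08. In the 3 water arrays apart on the second component the Tet1 mean was 7.82, against 7.97 in the other 6 water arrays, and without the 5 arrays set apart the difference with continuous ethanol was 0.12 ± 0.07 (unadjusted p = 0.0872, limma adjusted p = 0.559). Tet2 differed by -0.05 ± 0.04 with continuous ethanol. Tet3 differed by 0.13 ± 0.07 on its brightest probe set, by 0.12 ± 0.05 on the next (unadjusted p = 0.0297, limma adjusted p = 0.262) and by -0.08 ± 0.06 on the dimmest, so its probe sets did not share a sign. Without the same 5 arrays the brightest differed by 0.05 ± 0.06 and the next by 0.15 ± 0.06, the brightest having a mean of 8.41 in the 3 water arrays set apart and 8.64 in the other 6. The methyl-CpG-binding domain genes Mbd1, Mbd2 and Mbd3 differed by 0.02, 0.02 and -0.01 with continuous ethanol. With limited access they differed by 0.00, -0.01 and 0.01. Mbd3, a subunit of the NuRD complex, had the smallest residual SD of the 40 genes, 0.05.

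Methylation of lysine 9 on histone H3 accompanies silent chromatin. Ehmt2, also called G9a, makes the mono- and dimethyl mark together with Ehmt1. Its values (probe set 1388716_at) ranged from 10.34 to 10.44 with a median of 10.37 in water, from 10.22 to 10.41 with a median of 10.30 in limited arrays and from 10.10 to 10.51 with a median of 10.35 in continuous arrays. The water values lay close together inside the spread of the continuous values, and the limited values overlapped them from below. Means were 10.38 ± 0.03 (SD, n = 9) in water, 10.30 ± 0.07 (SD, n = 10) with limited and 10.32 ± 0.12 (SD, n = 10) with continuous access. Limited minus water was -0.08 ± 0.04 (SE, 95% interval -0.16 to 0.00, unadjusted p = 0.0529, limma adjusted p = 0.972), and continuous minus water was -0.06 ± 0.04 (95% interval -0.14 to 0.02, limma adjusted p = 0.467). Ehmt1 differed by -0.04 with limited access and 0.03 with continuous ethanol.

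Setdb1, which makes the trimethyl mark and silences retroelements, ranged from 11.26 to 11.43 with a median of 11.34 in water (probe set 1382141_at), from 11.24 to 11.35 with a median of 11.31 in limited arrays and from 11.13 to 11.40 with a median of 11.32 in continuous arrays. All 3 groups overlapped. The mean was 11.36 ± 0.05 (SD, n = 9) in water, 11.30 ± 0.05 (SD, n = 10) with limited and 11.31 ± 0.07 (SD, n = 10) with continuous access. Limited minus water was -0.06 ± 0.03 (SE, 95% interval -0.12 to 0.00, unadjusted p = 0.0550, limma adjusted p = 0.972), with 10 of 10 arrays below the water mean. The difference of continuous ethanol from water was -0.05 ± 0.03 (limma adjusted p = 0.396), and the dimmer probe set of Setdb1 differed by -0.10 ± 0.04 (unadjusted p = 0.0351, limma adjusted p = 0.276).

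Prdm2, a lysine 9 methyltransferase studied in alcohol dependence, had the largest residual SD of the 40 genes, 0.20. On probe set 1373712_at, values ranged from 9.46 to 9.79 with a median of 9.60 in water, from 9.37 to 10.52 with a median of 9.61 in limited arrays and from 9.40 to 9.58 with a median of 9.49 in continuous arrays. The value of 10.52 belonged to limited replicate 6 and lay far above the other limited arrays, of which the highest was 9.66. Means were 9.62 ± 0.12 (SD, n = 9), 9.65 ± 0.32 (SD, n = 10) and 9.50 ± 0.06 (SD, n = 10) in that order. Continuous minus water was -0.12 ± 0.09 (SE, 95% interval -0.31 to 0.06, unadjusted p = 0.181, limma adjusted p = 0.502), with 10 of 10 arrays below the water mean. Limited minus water was 0.03 ± 0.09 (limma adjusted p = 0.988) and limited minus continuous 0.15 ± 0.09 (limma adjusted p = 0.582). Without limited replicate 6 these 2 differences were -0.07 (limma adjusted p = 0.848) and 0.06 (limma adjusted p = 0.912). The other 3 tested Prdm2 probe sets differed by -0.03, 0.13 and -0.16 with continuous ethanol, so they did not share a sign.

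**Figure D3:**
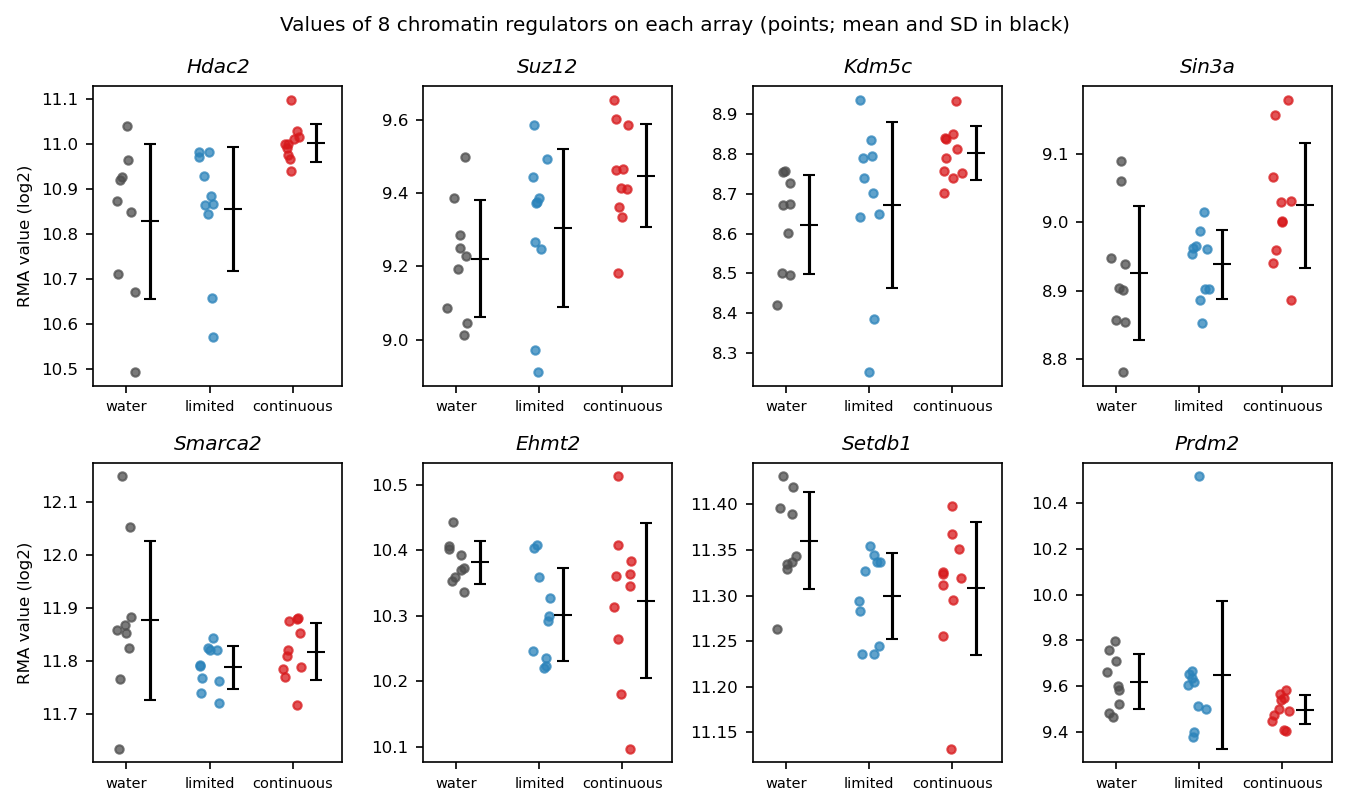
RMA values (log2, vertical axis) on each array for 8 chromatin genes by group, with points for arrays and the mean with SD in black. Hdac2 values of the continuous group sit between 10.94 and 11.10 and overlap the upper part of the water values, which run from 10.49 to 11.04, and the Prdm2 panel holds 1 limited array at 10.52.

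Polycomb repressive complex 2 methylates lysine 27 of histone H3. It is built from the catalytic subunit Ezh2, the scaffold Suz12 and Eed, which binds the mark. Suz12 had the largest difference of the 40 genes with continuous ethanol. Its values (probe set 1374435_at) ranged from 9.01 to 9.50 with a median of 9.23 in water, from 8.91 to 9.59 with a median of 9.37 in limited arrays and from 9.18 to 9.66 with a median of 9.44 in continuous arrays. The continuous values were shifted towards the upper end and overlapped both other groups. Means were 9.22 ± 0.16 (SD, n = 9), 9.31 ± 0.22 (SD, n = 10) and 9.45 ± 0.14 (SD, n = 10) in that order.

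Continuous minus water for Suz12 was 0.23 ± 0.08 (SE, 95% interval 0.07 to 0.39, unadjusted p = 0.00646, limma adjusted p = 0.182), and 9 of 10 continuous arrays exceeded the mean of water, limited minus water was 0.08 ± 0.08 (limma adjusted p = 0.972) and limited minus continuous was -0.14 ± 0.08 (limma adjusted p = 0.551). Without the 5 arrays set apart by component 2, continuous minus water was 0.19 (limma adjusted p = 0.451), and with the SD of each array as a covariate it was 0.13 (limma adjusted p = 0.904). The other subunits did not share the difference in size or sign. Ezh2 differed by -0.06 ± 0.06 with continuous ethanol and -0.08 with limited access, or by -0.12 ± 0.06 (unadjusted p = 0.0373, limma adjusted p = 0.481) and -0.17 ± 0.06 (unadjusted p = 0.00722, limma adjusted p = 0.956) without the same 5 arrays. Eed differed by 0.03 ± 0.04 and -0.01.

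Among the demethylases, Kdm5c removes methyl groups from lysine 4 of histone H3 and is encoded on the X chromosome. Its brightest probe set (1393019_at) ranged from 8.42 to 8.76 with a median of 8.67 in water, from 8.25 to 8.94 with a median of 8.72 in limited arrays and from 8.70 to 8.93 with a median of 8.80 in continuous arrays. The continuous values overlapped the top of the water values and lay inside the wider limited range. Means were 8.62 ± 0.12 (SD, n = 9), 8.67 ± 0.21 (SD, n = 10) and 8.80 ± 0.07 (SD, n = 10). The difference of continuous ethanol from water was 0.18 ± 0.07 (SE, 95% interval 0.05 to 0.31, unadjusted p = 0.0101, limma adjusted p = 0.199), and 10 of 10 continuous arrays exceeded the mean of water, limited minus water was 0.05 ± 0.07 (limma adjusted p = 0.972) and limited minus continuous was -0.13 ± 0.06 (unadjusted p = 0.0517, limma adjusted p = 0.539). Its dimmer probe sets differed by -0.02 ± 0.07 and -0.01 ± 0.06 with continuous ethanol, so the difference was seen on 1 of 3 probe sets. Without the 5 arrays set apart, continuous minus water was 0.16 ± 0.05 (unadjusted p = 0.00427, limma adjusted p = 0.357). In that setting limited minus water was 0.12 ± 0.05 (unadjusted p = 0.0325, limma adjusted p = 0.956) and limited minus continuous was -0.04. With the SD of each array as a covariate, continuous minus water was 0.06 (limma adjusted p = 0.932).

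Kdm6b removes methyl groups from lysine 27 and is transcribed in response to several stimuli. On probe set 1390000_at, values ranged from 8.25 to 8.60 with a median of 8.40 in water, from 8.28 to 8.57 with a median of 8.43 in limited arrays and from 8.33 to 8.62 with a median of 8.42 in continuous arrays. The groups overlapped throughout, with means of 8.43 ± 0.11 (SD, n = 9), 8.43 ± 0.08 (SD, n = 10) and 8.45 ± 0.10 (SD, n = 10). Continuous minus water was 0.02 ± 0.04 (SE, 95% interval -0.07 to 0.11, unadjusted p = 0.654, limma adjusted p = 0.856) and limited minus water was 0.00 ± 0.04 (95% interval -0.09 to 0.09, limma adjusted p = 0.999). Kdm1a, the LSD1 enzyme of the CoREST complex, differed by -0.02 ± 0.03 and -0.04 ± 0.03.

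Remodellers use ATP to move or evict nucleosomes. Smarca2 and Smarca4 are the alternative ATPases of the BAF complex, Smarcb1 is one of its core subunits and Chd4 is the ATPase of NuRD. Smarca2 had the smallest p of the 40 genes with limited access. Its values (probe set 1376337_at) ranged from 11.63 to 12.15 with a median of 11.86 in water, from 11.72 to 11.84 with a median of 11.79 in limited arrays and from 11.72 to 11.88 with a median of 11.82 in continuous arrays. The water values spread above and below those of both ethanol groups. Means were 11.88 ± 0.15 (SD, n = 9), 11.79 ± 0.04 (SD, n = 10) and 11.82 ± 0.05 (SD, n = 10).

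Limited minus water for Smarca2 was -0.09 ± 0.04 (SE, 95% interval -0.18 to -0.00, unadjusted p = 0.0498, limma adjusted p = 0.972), with 10 of 10 arrays below the water mean, and continuous minus water was -0.06 ± 0.04 (limma adjusted p = 0.504), or -0.12 (unadjusted p = 0.00851, limma adjusted p = 0.389) without the 5 arrays set apart by component 2, where limited minus water was -0.13 (unadjusted p = 0.00494, limma adjusted p = 0.956). Its dimmest tested probe set differed by 0.22 ± 0.09 with continuous ethanol (unadjusted p = 0.0278, limma adjusted p = 0.256), the opposite sign. The mean of its probe sets differed by 0.05 with continuous ethanol (limma adjusted p = 0.569). Smarca4 differed by -0.01 ± 0.03 with continuous ethanol and 0.03 with limited access. Its dimmer tested probe sets differed by 0.16 ± 0.20 and 0.05 ± 0.06 with continuous ethanol, the opposite sign. Without the 5 arrays set apart these were 0.44 ± 0.21 (unadjusted p = 0.0449, limma adjusted p = 0.497) and 0.02 ± 0.07. Smarcb1 differed by 0.05 ± 0.04 with continuous ethanol and -0.01 with limited access. Chd4 differed by -0.08 ± 0.04 and -0.06 with all arrays. Its mean was 11.21 in the 3 water arrays set apart by component 2 and 10.95 in the other 6, and without the 5 such arrays it differed by 0.01 ± 0.03 with continuous ethanol (limma adjusted p = 0.928) and by -0.00 ± 0.03 with limited access. The dimmer tested probe set of Chd4 differed by 0.07 ± 0.05 with continuous ethanol.

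Sin3a is the scaffold of a corepressor complex that carries the class I deacetylases Hdac1 and Hdac2. On probe set 1391498_at, values ranged from 8.78 to 9.09 with a median of 8.90 in water, from 8.85 to 9.02 with a median of 8.96 in limited arrays and from 8.89 to 9.18 with a median of 9.02 in continuous arrays. All groups overlapped, with the continuous values reaching highest. Means were 8.93 ± 0.10 (SD, n = 9), 8.94 ± 0.05 (SD, n = 10) and 9.02 ± 0.09 (SD, n = 10). The difference of continuous ethanol from water was 0.10 ± 0.04 (SE, 95% interval 0.02 to 0.18, unadjusted p = 0.0174, limma adjusted p = 0.223), and 9 of 10 continuous arrays exceeded the mean of water, and limited minus continuous was -0.09 ± 0.04 (95% interval -0.16 to -0.01, unadjusted p = 0.0317, limma adjusted p = 0.529). Without the 5 arrays set apart, Sin3a differed by 0.07 ± 0.05 with continuous ethanol (unadjusted p = 0.123, limma adjusted p = 0.606). In that setting limited minus continuous was -0.09 ± 0.04 (unadjusted p = 0.0357, limma adjusted p = 0.99996). With all arrays a second probe set of Sin3a differed by 0.19 ± 0.07 (unadjusted p = 0.0143, limma adjusted p = 0.217) with continuous ethanol, the same sign. Without the 5 arrays this second probe set differed by 0.18 ± 0.07 (unadjusted p = 0.0206, limma adjusted p = 0.451). Ctcf, the zinc finger protein that anchors chromatin loops, differed by 0.01 ± 0.03 and -0.03 ± 0.03.

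In all, 58 of the 70 probe sets of these genes were tested, and 11 genes had more than 1 tested probe set, 29 probe sets together. Limma called 0 of the 29 in any comparison. With continuous ethanol against water the probe sets shared a sign in 4 of the 11 genes, with limited access against water in 8 and between the schedules in 4. The 4 genes with continuous ethanol were Hdac1, Hdac10, Setdb1 and Sin3a, and the differences of the 29 probe sets ranged from -0.16 to 0.22.

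**Figure D4:**
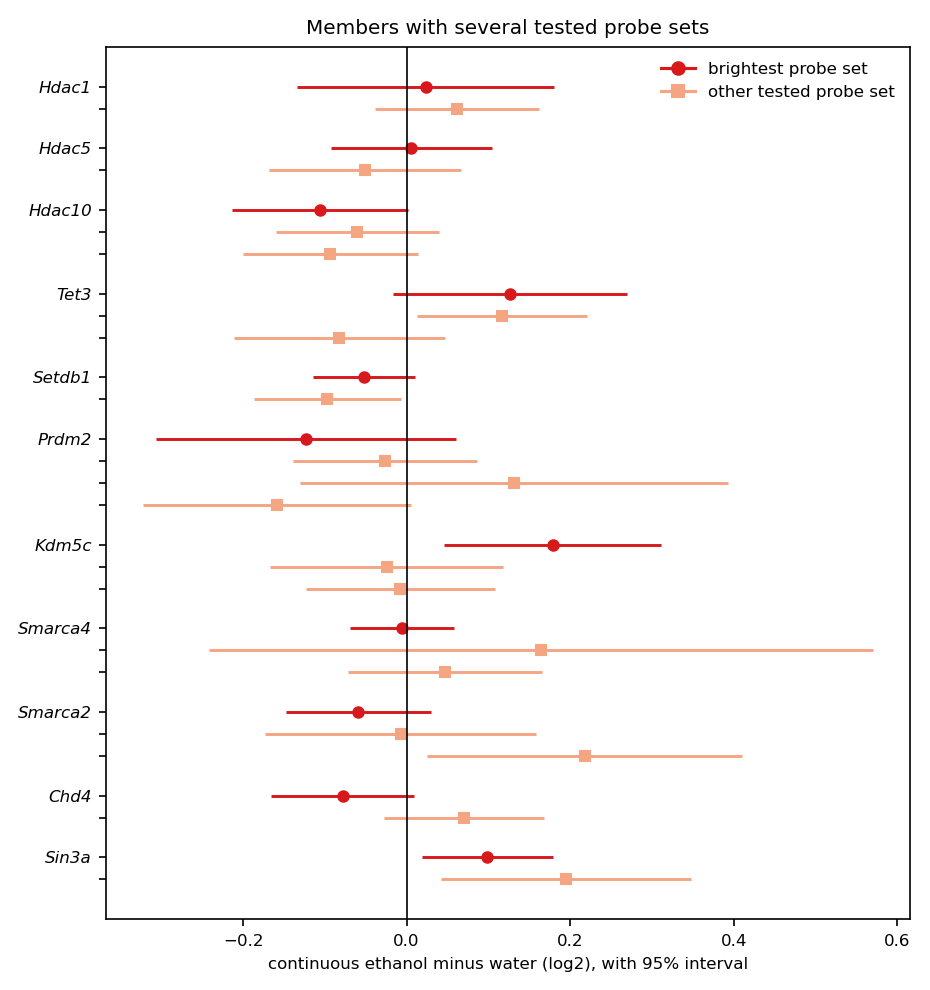
Continuous ethanol minus water (log2, horizontal axis) for the 29 tested probe sets of the 11 chromatin genes that had several, with 95% intervals from limma; circles are the brightest probe set and squares the others. Kdm5c has 1 probe set at 0.18 and 2 near 0, while both probe sets of Sin3a lie above 0.

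Of 177 other genes of the same processes, listed by function, 161 had a probe set and 150 were tested, among them further acetyltransferases, lysine and arginine methyltransferases, demethylases, polycomb and remodelling subunits, bromodomain readers and cohesin. Limma called 0 of the 150 in each of the 3 comparisons, against the same 0.152%, 0% and 0.0046% of all probe sets. At an unadjusted p under 0.05 there were 23 (15.3%) with continuous ethanol, 15 higher and 8 lower, 5 (3.33%) with limited access and 11 (7.33%) between the schedules. Over all probe sets tested the shares were 16.1% (9.62% higher and 6.48% lower), 4.44% and 9.31% in that order. The share of these genes, both directions together, was thus below the background in each comparison. The median differences of these 150 genes were 0.01, -0.01 and -0.01. Rnf2, a ubiquitin ligase of polycomb repressive complex 1, had the smallest p with continuous ethanol, with a difference of 0.28 ± 0.07 (SE, limma adjusted p = 0.120). The coactivator gene Ncoa3 differed by -0.18 ± 0.05 (limma adjusted p = 0.127) and Brd3, a bromodomain reader, by 0.19 ± 0.06 (limma adjusted p = 0.153). Without water replicate 4, both Rnf2 and Ncoa3 were called. With limited access the smallest p-values were those of the BAF subunit Smarcd2, with -0.20 ± 0.06 (limma adjusted p = 0.928), Setd1a, a lysine 4 methyltransferase, with -0.11 ± 0.03, and Setdb2, with -0.12 ± 0.04 (limma adjusted p = 0.972 for both). Between the schedules they were those of Brpf3 with -0.14 ± 0.04, Rnf2 with -0.20 ± 0.07 and Ing4 with 0.08 ± 0.03 (limma adjusted p = 0.526 each).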

How the data were processed

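Total RNA was extracted with Trizol and RNeasy columns, and biotinylated cRNA was hybridised to Affymetrix rat arrays, per the labels' protocols. The authors deposited RMA values on a log2 scale, per the submitters' processing notes and, for the log base, the range of the values from 4.04 to 16.0, and the software version was not given in the sources used here. RMA equalises the distributions of arrays at the probe level, so it would hide a shift common to all transcripts. The deposited values were not fully equal between arrays, with SDs from 2.13 (limited replicate 6) to 2.21 (limited replicate 8).

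From the 31099 probe sets, 57 control probe sets were removed, then the dimmest 30 percent by their mean, and 21729 were tested. The platform annotation gave 1 symbol for 20832 probe sets, several for 436 and none for 9831. All 29 arrays entered 1 model with group as the only factor, fitted with limma 3.58.1 in R 4.3.3 and tested on simulated data. P-values were two-sided and adjusted by the Benjamini-Hochberg method over all probe sets tested, with a threshold of 0.05. The number of arrays limits the precision.

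The genes and lists were chosen with earlier results of these data known. Full values are given for the 3 genes of smallest p in each comparison and, whatever their p, for Hdac2, Hdac5, Dnmt1, Ehmt2, Prdm2 and Kdm6b. The rule also named Sirt1, which had no probe set, and Dnmt3a, which fell below the filter and has only its group means. Tet1 was given its group values because it was among the 5 at an unadjusted p under 0.05. Of the other list, the genes that passed or, failing that, the 3 of smallest p in each comparison are named. The alternatives were no filter, a filter at 50 percent, quantile normalization again, array weights, median centring of arrays, a robust prior with a trend, replicate numbers as a block, the beta-actin and GAPDH difference between 3 prime and 5 prime probe sets as a covariate, only the groups compared, 1 probe set or the mean of all probe sets per gene, and each array left out in turn. Leaving out the 5 arrays set apart by component 2, and the array SD as a covariate, were chosen after seeing the data.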

Additional observations from a re-analysis of the deposited data

Results flagged for a closer look

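Of 33 group values of the genes given in full, 1 held an array far from the others. In the limited access group Prdm2 was 10.52 on replicate 6, against 9.66 on the next array, a gap that took up 0.746 of the whole range of the group, more than Dixon's 95% critical value allows for 10 arrays. Chance alone flags about 1 in 20 groups. On the other 5 Prdm2 probe sets the same array did not stand out upwards. It was 9.09 on probe set 1370639_at, where the other 9 limited arrays ranged from 8.95 to 9.27, 9.09 on 1389104_s_at against 8.90 to 9.18, 7.39 on 1397553_s_at against 7.07 to 7.59, 6.63 on 1377859_s_at against 6.28 to 7.02, and 6.28 on 1377858_at against 6.39 to 6.79. This array is among the 5 that the second component set apart.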

How the results depend on the processing

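Limma called 0 of the tested chromatin genes in each comparison under all 13 alternative settings, each applied to the comparisons it allows, and with each of the 29 arrays left out in turn. The smallest adjusted p among them was 0.110 for continuous ethanol against water under those settings (only the groups compared) and 0.0781 without water replicate 4. The count at an unadjusted p under 0.05 with continuous ethanol was 5 of 40 in the main setting. It was 8 (20.0%, against 15.5% of all probe sets) with a further quantile normalization, 8 (20.0% against 16.6%) with only the groups compared, 7 (17.5% against 12.7%) with array weights, 7 (17.5%, of which 3 higher, against 9.92%) without the 5 arrays apart on component 2, and 4 (10.0% against 5.87%) with the SD of each array as a covariate. With 1 array left out it ranged from 4 (10.0%) to 7 (17.5%), against 12.3% to 19.5% of all probe sets. With limited access it was 1 in the main setting and from 0 to 3 under the alternatives, and between the schedules 2, from 1 to 4 under the alternatives and 6 without limited replicate 8. The median difference of the members moved by less than 0.024 in each setting, the SD of that median between arrays of a group. Its sign was not fixed. With continuous ethanol it was 0.0093 in the main setting and from -0.0067 to 0.020 under the alternatives. With limited access it was -0.011 in the main setting and from -0.017 to 0.00071 with 1 array left out. The count of other chromatin genes called with continuous ethanol ranged from 0 to 2 with 1 array left out, and was 2 without water replicate 4 (Rnf2 and Ncoa3), where 94 probe sets were called in all.

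No gene given in full was called under any of these settings. Among 1805 recomputed values, which include counts and medians, the small difference of a gene turned its sign in 49. The cause of this was not tested. For Hdac5 with continuous ethanol the difference was -0.012 with a further quantile normalization, -0.023 with the mean of all probe sets and -0.00053 without the 5 arrays, and for Smarca2 it was 0.051 with the mean of all probe sets, which adds the dimmest probe set, of opposite sign. For limited access against water, array weights gave 0.00082 for Hdac5, -0.0040 for Dnmt1, -0.077 for Prdm2 and -0.0099 for Kdm6b, and leaving out the 5 arrays gave -0.020 for Sin3a, -0.0026 for Dnmt1 and -0.060 for Prdm2. With the array SD as a covariate Kdm6b was -0.0049 with continuous ethanol, -0.0039 with limited access and 0.00095 between the schedules, where it was 0.0013 with the beta-actin and GAPDH covariate. Setdb1 between the schedules was 0.0042 with a further quantile normalization, 0.016 with the mean of all probe sets and 0.0077 with the array SD.

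With 1 array left out, limited minus water ranged from -0.015 to 0.059 for Hdac2, from -0.0054 to 0.033 for Sin3a, from -0.0089 to 0.031 for Dnmt1, from -0.034 to 0.015 for Hdac5, from -0.067 to 0.060 for Prdm2 and from -0.021 to 0.022 for Kdm6b. Continuous minus water ranged from -0.010 to 0.036 for Hdac5 and from -0.0020 to 0.041 for Kdm6b, and limited minus continuous from -0.029 to 0.00096 for Setdb1 and from -0.035 to 5.3e-05 for Kdm6b.

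The replicate numbers were also used as a replicate block. Same-numbered samples had correlations of their deviations from group means between -0.24 and 0.34, with 12 of 28 pairs over 0.1. Only 2 of 29 samples correlated best with their own number, so most were closest to a sample of another number. Whether some of the numbers mark samples that belong together was not tested. With the block, 0 members were called in each comparison, 28 probe sets were called with continuous ethanol in place of 33, and Kdm6b with limited access was -0.00037.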
